A study of Mus musculus with 6 samples.

Results

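The collagen genes of brown adipose tissue (BAT) were taken as every row of the count tables whose gene symbol has the form of a collagen chain, Col, a type number, the letter a and a chain number. Of 23282 rows, 44 had such a symbol, and 3 of them (Col9a1, Col9a2 and Col25a1) had no count in any mouse. The other 41 collagen genes are described here. RNA was measured in interscapular BAT, the heat-producing fat depot between the shoulder blades, of 3 wild-type and 3 Letmd1 KO mice, all male, of the C57BL/6N strain and 5 weeks of age. The Letmd1 KO mice carried a knockout-first allele of Letmd1, a lacZ and neomycin cassette inside an intron, on both copies in every tissue, and the line was made from targeted embryonic stem cells. The allele is not limited to fat cells, so the collagen-producing cells of the tissue carry it too. QuantSeq libraries read the 3′ end of each mRNA, so a count does not scale with the length of a transcript.

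Collagens are the main structural proteins of the extracellular matrix. Each molecule is a triple helix of alpha chains, and every chain has its own gene, so a working protein can need the products of several genes in fixed proportion. Fibrillar collagens (types I, II, III, V, XI, XXIV and XXVII) assemble into the fibres that give tissue its strength and are made largely by fibroblasts and related stromal cells. Type IV collagens form the sheet-like network of basement membranes, which surround every adipocyte and capillary. The remaining types bind to fibril surfaces, form beaded filaments, anchor basement membranes or span the cell membrane. Type VI collagen, a beaded filament, is abundant around fat cells.

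A known post-transcriptional regulator of many collagens is the microRNA family miR-29, whose members pair through bases 2 to 8, the seed, with sites in 3′ untranslated regions (UTRs). The mature mouse sequences from RefSeq are shown because the same seed recurs as a complementary site across the collagens described here, with the seed in capitals:
mmu-miR-29a-3p: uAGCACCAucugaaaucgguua
mmu-miR-29b-3p: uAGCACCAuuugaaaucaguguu
mmu-miR-29c-3p: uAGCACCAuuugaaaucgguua
All 3 share 1 seed, and the letters searched in the annotated 3′ UTR of 1 transcript per gene, on the transcribed strand only, were its complement TGGTGCT. Examples from the 3 classes of collagens follow, with the match in capitals, in the sense of the transcript and on build GRCm38:
Col1a1, chr11:94952528-94952553, plus strand: aaggaatttcTGGTGCTatagaagct
Col3a1, chr1:45348972-45348997, plus strand: aatgtctcaaTGGTGCTataataaat
Col5a2, chr1:45374957-45374982, minus strand: cttttaatgaTGGTGCTaaaattatt
Col6a3, chr1:90767403-90767428, minus strand: cctgtcaataTGGTGCTaaatgtgtc
Col15a1, chr4:47312490-47312515, plus strand: atccacatatTGGTGCTagattctgc
Col4a1, chr8:11199753-11199778, minus strand: cgtcacaacaTGGTGCTactcccccc
Col4a2, chr8:11448349-11448374, plus strand: aaggccacgtTGGTGCTtatccttct
The levels of miR-29 itself were not measured in these libraries, and a match of letters is not in itself a binding site.

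The libraries held between 6669577 and 14574273 counts per mouse, and a floor of 3 counts corresponded to between 0.176 and 0.397 CPM, for counting error only. CPM are counts divided by the library size after TMM scaling, a correction for RNA composition whose factor was between 0.852 and 0.886 in wild-type and between 1.13 and 1.17 in Letmd1 KO mice. The deleted gene itself gave 5658, 6490 and 5266 counts in wild-type BAT against 0, 0 and 1 in Letmd1 KO BAT, so no label was at odds with the counts. The test was the quasi-likelihood test of edgeR, with Benjamini-Hochberg adjustment over all 12995 genes that passed its filter. Adjusted p-values below come from that fit unless another setting is named, and ± is SD over 3 mice. The p-values set the difference between the genotypes against the spread within each genotype, for these 6 mice. In whole tissue, more cells of a type and more RNA per cell cannot be told apart.

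Collagen transcripts were more abundant in Letmd1 KO BAT. The summed level of the family was 3985, 3699 and 3219 CPM in wild-type mice and 8274, 11923 and 7380 CPM in Letmd1 KO mice, so every Letmd1 KO mouse lay above every wild-type mouse. Of all counts, collagens made up 0.341%, 0.327% and 0.274% in wild-type mice and 0.965%, 1.35% and 0.861% in Letmd1 KO mice. Among the 41 genes with counts, 26 had enough for the test. Of these, 15 rose at an adjusted p under 0.05, against 23.7% of all genes tested, and 0 fell, against 22.3%. No collagen was lower at an unadjusted p under 0.05 either, and DESeq2 and limma also called 0 lower. In 19 of the 26, every Letmd1 KO mouse exceeded every wild-type mouse, which held for 30.1% of all genes tested. Over the 26 collagens the median log2 fold change was 1.04, beside 0.033 over all genes tested.

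**Figure D1:**
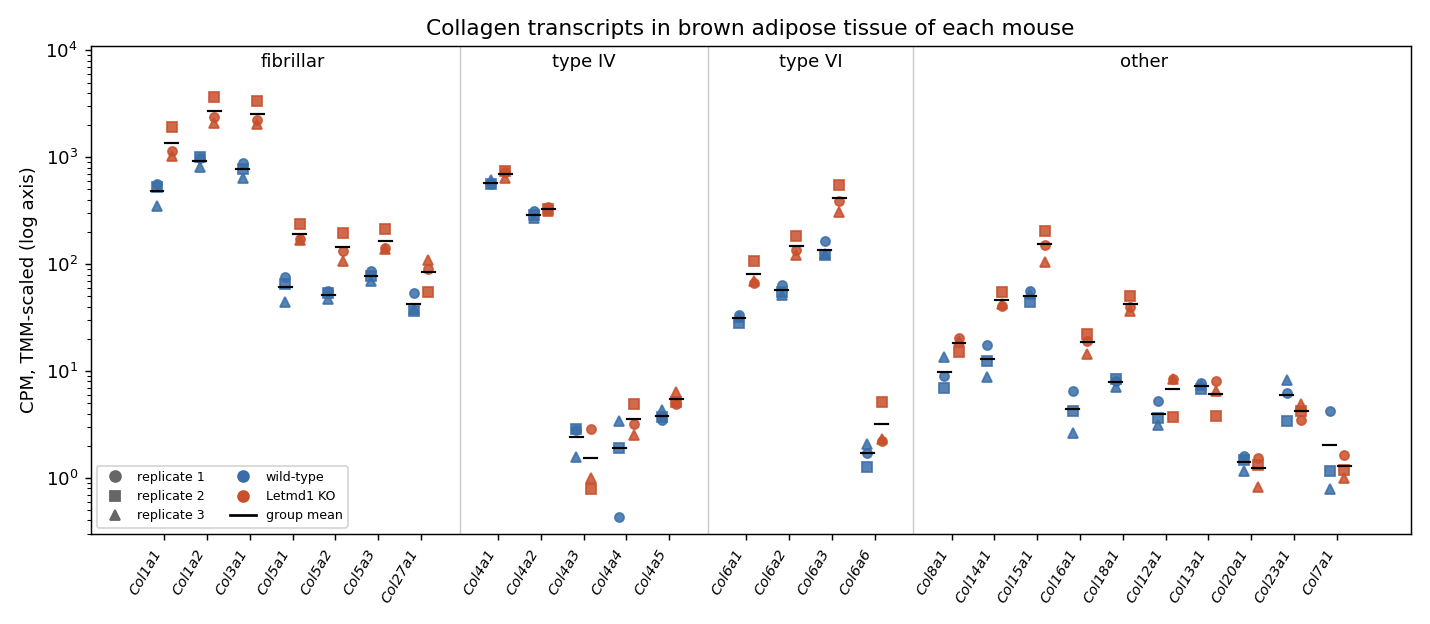
Level of each of the 26 tested collagens in each of the 6 mice, in TMM-scaled CPM on a log axis, with colour for genotype, marker shape for replicate and a bar for the mean of 3 mice. Every Letmd1 KO mouse lies above every wild-type mouse in the 7 fibrillar chains and in Col6a1, Col6a2 and Col6a3. The same holds for Col4a1, Col4a2 and Col4a5. The gap is narrow in Col4a1 (615 against 640 CPM), Col4a2 (312 against 314 CPM) and the fibrillar Col27a1 (53.5 against 54.9 CPM). In Col4a3 and Col4a4 the genotypes overlap.

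Counted by class, the calls fell on fibrillar and other chains but not on type IV. All 7 fibrillar chains tested rose, with a median log2 fold change of 1.49 and a range from 0.995 to 1.73. None of the 5 type IV chains tested passed the test, with a median of 0.28. Of the 14 other collagens tested, 8 rose, with a median of 1.13. The difference between the classes was not tested as such, and intervals are given for single chains.

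The 2 chains of type I collagen, the most abundant protein of connective tissue fibres, both rose. Col1a1 (chromosome 11, 94936224 to 94953042, plus strand) was at 568, 531 and 351 CPM in wild-type mice and at 1149, 1911 and 1020 CPM in Letmd1 KO mice. Its mean went from 483 ± 116 to 1360 ± 482 CPM, or 1.49 on the log2 scale (standard error 0.261, adjusted p = 0.00149, edgeR). Col1a2 (chromosome 6, 4504814 to 4541544, plus strand) was at 983, 1002 and 812 CPM in wild-type mice and at 2373, 3638 and 2071 CPM in Letmd1 KO mice. On the log2 scale the change of Col1a2 was 1.53 (standard error 0.215, adjusted p = 0.000428, edgeR). Type I collagen holds 2 alpha 1 chains and 1 alpha 2 chain, a proportion in the protein that RNA counts of 2 genes do not measure. The counts of Col1a2 per count of Col1a1 were 1.73, 1.89 and 2.31 in wild-type mice and 2.07, 1.90 and 2.03 in Letmd1 KO mice. Thus the genotypes overlapped in the balance of the 2 transcripts while both levels rose.

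Type III collagen, which co-assembles with type I in soft tissue, is built from Col3a1 alone (chromosome 1, 45311538 to 45349706, plus strand). Col3a1 was at 891, 775 and 643 CPM in wild-type mice and at 2239, 3374 and 2058 CPM in Letmd1 KO mice. With a log2 fold change of 1.73 (95% interval 1.25 to 2.21, adjusted p = 0.000203, edgeR), it had the highest value of the 7 fibrillar chains tested. Col5a2 lies 24.6 kb from Col3a1 on the opposite strand. Type V collagen sits inside type I fibrils and limits their diameter, and its chain Col5a2 was at 55.5, 53.5 and 46.9 CPM in wild-type mice and at 133, 196 and 107 CPM in Letmd1 KO mice. Its log2 fold change was 1.48 (95% interval 1.02 to 1.94, adjusted p = 0.000384, edgeR). Col5a1, the chain found in nearly all type V molecules, was at 75.1, 65.4 and 43.9 CPM in wild-type mice and at 171, 239 and 168 CPM in Letmd1 KO mice, with a log2 fold change of 1.64 (adjusted p = 0.000248, edgeR). The remaining chain, Col5a3, had a lower fold change, from 87.0, 77.2 and 69.0 CPM to 143, 214 and 138 CPM, with a log2 fold change of 1.08 (95% interval 0.683 to 1.49, adjusted p = 0.00105, edgeR).

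The remaining fibrillar chain with enough counts was Col27a1, a collagen best known from cartilage. It was at 53.5, 36.2 and 38.5 CPM in wild-type mice and at 90.1, 54.9 and 110 CPM in Letmd1 KO mice. The 2 groups came close, 54.9 CPM in the lowest Letmd1 KO mouse against 53.5 CPM in the highest wild-type mouse, and the log2 fold change was 0.995 (95% interval 0.443 to 1.55, adjusted p = 0.00902, edgeR). With the level of skeletal muscle markers as a covariate, Col27a1 no longer passed the test, although its log2 fold change was 1.06 (adjusted p = 0.0893, edgeR). Letmd1 KO replicate 2, the highest mouse for types I, III and V, was the lowest of its group for Col27a1. Without that mouse, the median of the fibrillar chains was 1.24.

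Type IV chains are arranged as head-to-head pairs of genes that share a start region. Col4a1 and Col4a2, the chains of the common basement membrane network, lie on opposite strands of chromosome 8 (11198423 to 11312826 and 11312805 to 11449287) and overlap by 22 bases at their starts. Col4a1 was at 563, 560 and 615 CPM in wild-type mice and at 728, 744 and 640 CPM in Letmd1 KO mice. Every Letmd1 KO mouse was above every wild-type mouse, but the log2 fold change of 0.28 (95% interval 0.022 to 0.538, adjusted p = 0.0723, edgeR) did not pass the test. Col4a2 was at 312, 286 and 272 CPM in wild-type mice and at 342, 325 and 314 CPM in Letmd1 KO mice, with a log2 fold change of 0.17 (adjusted p = 0.202, edgeR). The upper bounds of both intervals, 0.538 and 0.409, lie below the lowest fibrillar fold change, 0.995, although the interval of that chain, Col27a1, starts at 0.443. Both calls depend on the scaling. With library size alone, which put the median of all genes at 0.453, Col4a1 and Col4a2 were called higher, at 0.70 and 0.60. Quantile normalization put the median of all genes at -0.053, and both were called there too, at 0.82 and 0.51. Col4a1 also passed with genes at a mean of 50 counts or more (adjusted p = 0.0372, edgeR) and without Letmd1 KO replicate 3 (adjusted p = 0.0439, edgeR). The p-values do not show that type IV transcripts stayed the same.

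The scarce type IV chains were measured less well. Col4a5, on the X chromosome, was at 3.45, 3.71 and 4.30 CPM in wild-type mice and at 4.95, 5.16 and 6.35 CPM in Letmd1 KO mice, with a log2 fold change of 0.53 (95% interval -0.066 to 1.13, adjusted p = 0.131, edgeR), and it passed with library size alone (0.95). Col4a4 was at 0.431, 1.91 and 3.39 CPM in wild-type mice and at 3.19, 4.90 and 2.53 CPM in Letmd1 KO mice, so the groups overlapped (log2 fold change 0.89, adjusted p = 0.254, edgeR), and without wild-type replicate 3 the value was 1.55. Col4a3 was at 2.80, 2.86 and 1.56 CPM in wild-type mice and at 2.86, 0.794 and 1.0 CPM in Letmd1 KO mice (log2 fold change -0.66, adjusted p = 0.343, edgeR), and without Letmd1 KO replicate 1 the value was -1.40. The annotated 3′ end of Col4a3 overlaps a transcript on the opposite strand, C430014B12Rik, so its counts cannot be assigned with certainty where strand was not used. Col4a6 had 0, 3 and 11 counts in wild-type mice and 0, 0 and 2 in Letmd1 KO mice, too few for the test.

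**Figure D2:**
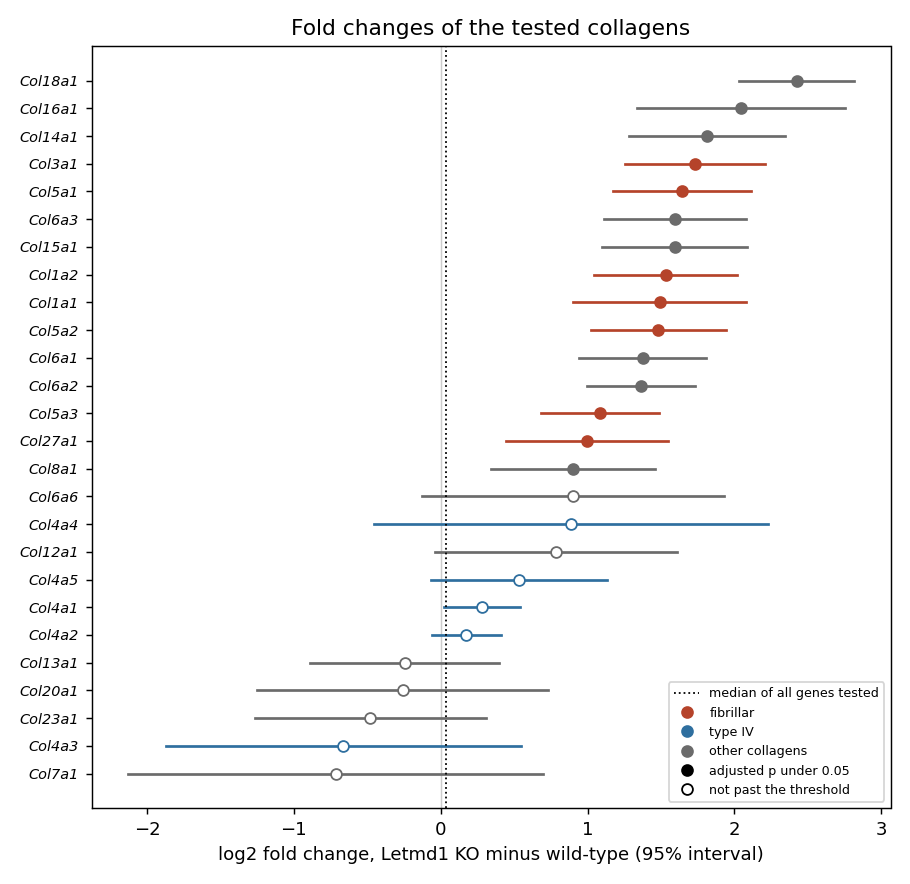
Log2 fold change of each tested collagen, Letmd1 KO over wild-type BAT with 3 mice each, with its 95% interval, in order of size and coloured by class, and a dotted line at the median of all genes tested. The 15 filled points passed an adjusted p of 0.05 in edgeR's fit, and none of the type IV chains (blue) is among them.

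The make-up of the collagen transcripts also differed between the genotypes, with more fibrillar and fewer type IV counts among them in Letmd1 KO BAT. The fibrillar sum was 2714, 2541 and 2005 CPM in wild-type mice and 6301, 9627 and 5674 CPM in Letmd1 KO mice. The type IV sum was 882, 855 and 897 CPM in wild-type mice and 1081, 1080 and 964 CPM in Letmd1 KO mice. Fibrillar counts per type IV count were 3.08, 2.97 and 2.23 in wild-type mice and 5.83, 8.92 and 5.89 in Letmd1 KO mice, a ratio of deposited counts that uses no library-size factor. Type IV chains made up 22.1%, 23.1% and 27.9% of the collagen counts in wild-type mice and 13.1%, 9.05% and 13.1% in Letmd1 KO mice. The share of the fibrillar chains was 66.4 ± 3.55% in wild-type and 77.9 ± 2.47% in Letmd1 KO mice. All other collagens together made up 9.26 ± 0.941% and 10.3 ± 0.384%.

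**Figure D3:**
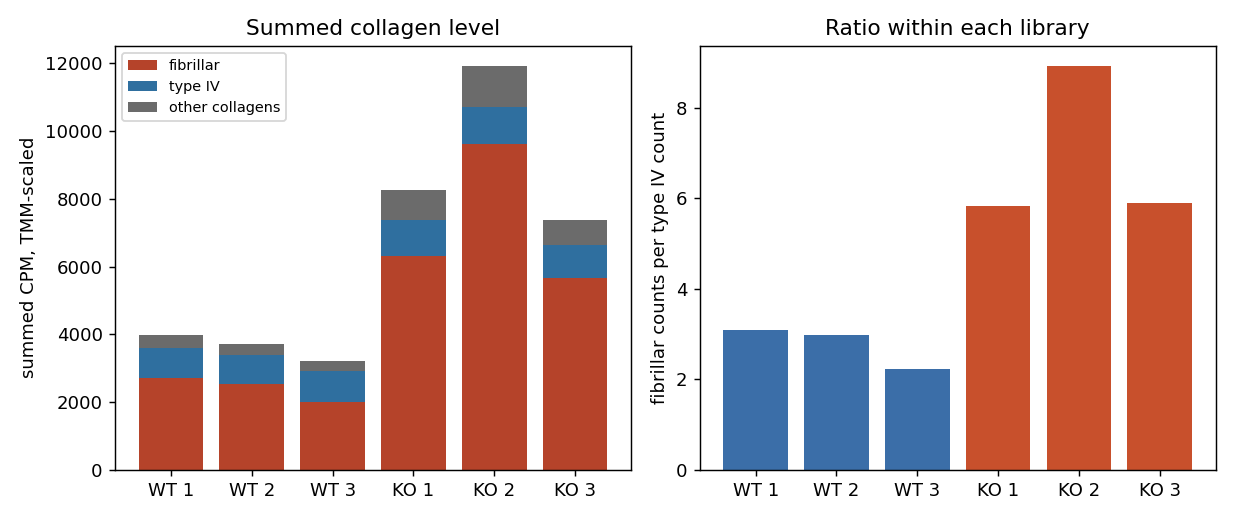
On the left, stacked bars of the summed TMM-scaled CPM of fibrillar, type IV and other collagens in each mouse, and on the right, fibrillar counts per type IV count in each mouse. The fibrillar part lies between 2005 and 2714 CPM in wild-type and between 5674 and 9627 CPM in Letmd1 KO mice, and the ratio between 2.23 and 3.08 against 5.83 and 8.92.

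Type VI collagen, the beaded filament that surrounds adipocytes, rose in its 3 main chains. Col6a3 was at 165, 122 and 124 CPM in wild-type mice and at 386, 551 and 307 CPM in Letmd1 KO mice, or 1.60 on the log2 scale (adjusted p = 0.000335, edgeR). Its C-terminal end is known to be released as the fat-derived peptide endotrophin. Col6a1 was at 33.6, 28.1 and 32.1 CPM in wild-type mice and at 66.5, 108 and 69.6 CPM in Letmd1 KO mice, or 1.38 on the log2 scale (adjusted p = 0.000418, edgeR). Col6a2, which lies 85.2 kb from Col6a1 on the same strand of chromosome 10, was at 64.4, 54.8 and 51.9 CPM in wild-type mice and at 137, 183 and 121 CPM in Letmd1 KO mice, or 1.36 on the log2 scale (adjusted p = 0.000182, edgeR). The counts of Col6a3 per count of Col6a1 overlapped between the genotypes, at 3.86 to 4.90 in wild-type and 4.41 to 5.80 in Letmd1 KO mice. Of the scarcer alternative chains, Col6a6 was at 1.72, 1.27 and 2.09 CPM in wild-type mice and at 2.20, 5.16 and 2.29 CPM in Letmd1 KO mice and did not pass the test (adjusted p = 0.137, edgeR), other than with library size alone (1.31).

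The largest fold change among the 26 tested collagens belonged to a multiplexin, a basement membrane collagen with interrupted helices. Col18a1 (chromosome 10, 77052178 to 77166548, minus strand), whose C-terminal fragment is endostatin, was at 8.09, 8.38 and 7.04 CPM in wild-type mice and at 39.6, 50.7 and 36.6 CPM in Letmd1 KO mice. Its mean went from 7.83 ± 0.702 to 42.3 ± 7.43 CPM, or 2.42 on the log2 scale (standard error 0.174, adjusted p = 1.27e-05, edgeR). The other multiplexin, Col15a1, found around capillaries, muscle and fat cells, was at 56.2, 44.4 and 52.2 CPM in wild-type mice and at 152, 204 and 105 CPM in Letmd1 KO mice, with a log2 fold change of 1.59 (adjusted p = 0.000389, edgeR). The interval of Col18a1, 2.03 to 2.82, and that of Col15a1, 1.10 to 2.09, overlap slightly. The counts of Col18a1 per count of Col15a1 were 0.144, 0.189 and 0.135 in wild-type mice and 0.260, 0.248 and 0.348 in Letmd1 KO mice. Both multiplexins are placed in basement membrane zones, like the type IV chains that did not pass the test.

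Among the collagens that attach to fibril surfaces (FACIT), 2 of the 4 tested rose. Col16a1 was at 6.47, 4.24 and 2.61 CPM in wild-type mice and at 19.2, 22.4 and 14.3 CPM in Letmd1 KO mice, or 2.05 on the log2 scale (adjusted p = 0.000732, edgeR). Col14a1, which binds type I fibrils, was at 17.6, 12.4 and 8.87 CPM in wild-type mice and at 41.0, 54.4 and 42.2 CPM in Letmd1 KO mice, or 1.81 on the log2 scale (adjusted p = 0.000273, edgeR). Col12a1, its close relative, was at 5.28, 3.60 and 3.13 CPM in wild-type mice and at 8.35, 3.71 and 8.47 CPM in Letmd1 KO mice, and the groups overlapped (adjusted p = 0.109, edgeR). Col12a1 passed with library size alone (1.21) and without Letmd1 KO replicate 2 (1.06). Col8a1, a short-chain network collagen of vessel walls, was at 8.95, 7.0 and 13.4 CPM in wild-type mice and at 20.2, 15.1 and 19.2 CPM in Letmd1 KO mice. The log2 fold change of Col8a1 was 0.90 (adjusted p = 0.0153, edgeR), and its call did not hold without wild-type replicate 1, wild-type replicate 2, Letmd1 KO replicate 1 or Letmd1 KO replicate 3, at adjusted p-values from 0.0509 to 0.0598. Col8a1 and Col27a1 were the only called collagens whose call was lost when a mouse was left out or a covariate or another scaling, tool or filter was used.

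The tested collagens below 0 on the log2 scale were all scarce. They were Col7a1, the anchoring fibril collagen (-0.715), the transmembrane collagens Col13a1 (-0.25) and Col23a1 (-0.48), the FACIT Col20a1 (-0.26) and Col4a3. None passed the test, with adjusted p-values from 0.291 to 0.661 in edgeR's fit. Only Col4a3 kept its sign under all alternatives. Col13a1 and Col20a1 turned positive with library size alone, Col23a1 and Col7a1 with the muscle covariate, Col7a1 without wild-type replicate 1 and Col20a1 without Letmd1 KO replicate 3.

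The other 15 collagens had too few counts for the test. None of them exceeded 25 counts in any mouse. Type II collagen of cartilage (Col2a1) had 1 count in all 6 libraries together, and the 2 type XI chains had at most 24 counts in a mouse. In Col6a5 and Col11a1, alone among these 15, every Letmd1 KO mouse was above every wild-type mouse, a pattern found in 30.1% of all genes tested. Col6a5 had 1, 1 and 2 counts in wild-type mice and 11, 25 and 10 in Letmd1 KO mice, and Col11a1 had 1, 3 and 1 against 4, 9 and 12.

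The miR-29 seed match was found in a larger share of the collagens than of all genes tested. Of the 15 collagens that rose, 11 (73.3%) held at least 1 match, with 16 in all. All 5 tested type IV chains held a match too, with 12 in all. Of the 11 tested collagens that did not pass the test, which include these 5, 6 (54.5%) held a match. Outside type IV, Col7a1 held a match, and Col6a6, Col12a1, Col13a1, Col20a1 and Col23a1 did not. Over all genes tested with an annotated 3′ UTR, 1669 of 11976 (13.9%) held the match, and among UTRs of 1000 bases or more 1355 of 5836 (23.2%) did. The match was therefore present both in classes that rose and in the class that did not pass the test. Col1a2, Col6a1, Col14a1 and Col18a1 rose and did not hold these letters in the window searched.

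The genes that make, process, bind and degrade collagen were examined as a list of 64, of which 54 were tested. Of these, 40 rose, against 23.7% of all genes tested, and 3 fell, against 22.3%. Among the 40 were Adamts14, Loxl4 and Lair1, which passed the filter only through their counts in Letmd1 KO mice. Their calls add no support. The median log2 fold change was 1.08, beside 0.033 over all genes tested.

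Before secretion, collagen chains are hydroxylated and folded in the endoplasmic reticulum. Of 8 tested genes of prolyl hydroxylation, 7 rose, and P4ha1, a prolyl 4-hydroxylase chain, did not pass the test (log2 fold change -0.098, adjusted p = 0.632, edgeR). P4hb, a subunit of prolyl 4-hydroxylase, was at 72.2, 62.0 and 58.4 CPM in wild-type mice and at 160, 178 and 132 CPM in Letmd1 KO mice (log2 fold change 1.28, adjusted p = 0.000101, edgeR). The prolyl 3-hydroxylases P3h3 and P3h1 rose by 1.24 and 0.98 on the log2 scale. Of 5 genes of lysyl hydroxylation and glycosylation, 2 rose, Plod2 (1.05, adjusted p = 0.00569, edgeR) and Colgalt1 (0.82, adjusted p = 0.00148, edgeR). With the muscle covariate the calls of P3h3 (0.97, adjusted p = 0.103, edgeR) and Plod2 (0.69, adjusted p = 0.126, edgeR) were lost. Among chaperones and export factors, 4 of 6 rose and 1 fell. Fkbp10, a foldase for procollagen, rose by 1.61, Creb3l1, a transcription factor of procollagen export, by 1.25, and Fkbp14 by 0.92 on the log2 scale. The call of Fkbp14 was lost with the muscle covariate (0.34), without wild-type replicate 1 (0.81) and without Letmd1 KO replicate 3 (0.76). Serpinh1, the collagen-specific chaperone Hsp47 and the most abundant member, was at 206, 214 and 227 CPM in wild-type mice and at 233, 253 and 196 CPM in Letmd1 KO mice. The groups overlapped, and the log2 fold change of Serpinh1 was 0.07 (95% interval -0.196 to 0.341, adjusted p = 0.649, edgeR), with -0.011 without Letmd1 KO replicate 2. With library size alone and with quantile normalization it was called, at 0.49 and 0.35. Tmem38b, chosen after its values were seen, fell by 0.73 on the log2 scale (adjusted p = 0.0451, edgeR), a call lost under most alternatives.

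Outside the cell, propeptides are cut off and fibrils are cross-linked. Of 8 listed genes of propeptide removal, 5 were tested, and all 5 rose. Pcolce, the enhancer of procollagen C-proteinase, was at 54.7, 49.5 and 42.5 CPM in wild-type mice and at 132, 182 and 108 CPM in Letmd1 KO mice (log2 fold change 1.52, adjusted p = 0.000221, edgeR). The N-proteinase Adamts2 rose by 1.32 on the log2 scale, and Adamts14 had 0, 8 and 6 counts in wild-type mice and 32, 33 and 48 in Letmd1 KO mice. Its log2 fold change of 2.69 became 2.09 without wild-type replicate 1, and the call was lost with the muscle covariate (2.29, adjusted p = 0.114, edgeR). Of 6 cross-linking genes, 4 rose, and Lox (0.17, adjusted p = 0.489, edgeR) and Loxl3 (0.21, adjusted p = 0.265, edgeR) did not pass the test. Loxl4, a lysyl oxidase, had 0, 1 and 0 counts in wild-type mice and 43, 32 and 66 in Letmd1 KO mice, a ratio of summed levels of 110 (95% counting interval 19.5 to 4400, counting error only). Loxl1 was at 28.9, 27.1 and 19.6 CPM in wild-type mice and at 107, 105 and 102 CPM in Letmd1 KO mice (log2 fold change 2.05, adjusted p = 1.45e-05, edgeR). Loxl2 (1.16) and Tgm2 (0.55), a transglutaminase, rose as well.

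Of 11 fibril-bound proteins, 9 rose and 1 fell. Lum, a small leucine-rich proteoglycan that spaces fibrils, was at 17.3, 20.4 and 12.9 CPM in wild-type mice and at 72.9, 133 and 65.0 CPM in Letmd1 KO mice (log2 fold change 2.41, adjusted p = 0.000165, edgeR). Fn1, fibronectin, was at 23.9, 19.1 and 12.0 CPM in wild-type mice and at 102, 98.5 and 90.9 CPM in Letmd1 KO mice (adjusted p = 3.41e-05, edgeR). Sparc, a collagen-binding protein and the most abundant member, went from 1954 ± 320 to 3330 ± 443 CPM, a log2 fold change of 0.77 (adjusted p = 0.00533, edgeR). The call of Sparc was lost with the muscle covariate, at 0.74 (adjusted p = 0.0741, edgeR). Thbs2 rose by 1.72 on the log2 scale (adjusted p = 0.0165, edgeR), and without Letmd1 KO replicate 2 its value was 1.07 and the call was lost (adjusted p = 0.0525), as it was without wild-type replicate 2 and with quantile normalization. Prelp, a proteoglycan that links fibrils to basement membranes and was chosen after its values were seen, moved the other way. It was at 213, 208 and 143 CPM in wild-type mice and at 56.5, 70.4 and 62.0 CPM in Letmd1 KO mice (log2 fold change -1.58, adjusted p = 8.41e-05, edgeR).

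Of 7 tested receptors, 3 rose and 1 fell. Ddr2, a receptor tyrosine kinase for fibrillar collagen, was at 42.7, 36.3 and 36.8 CPM in wild-type mice and at 259, 243 and 227 CPM in Letmd1 KO mice (log2 fold change 2.65, adjusted p = 1.46e-06, edgeR). Its relative Ddr1 was at 12.7, 17.1 and 11.9 CPM in wild-type mice and at 72.2, 48.4 and 59.5 CPM in Letmd1 KO mice (log2 fold change 2.11, adjusted p = 4.14e-05, edgeR). Lair1, an inhibitory receptor of leukocytes, had 0, 6 and 13 counts in wild-type mice and 34, 82 and 54 in Letmd1 KO mice. Its log2 fold change moved from 2.95 to 2.33 without wild-type replicate 1, to 4.11 without wild-type replicate 3 and to 2.19 without Letmd1 KO replicate 2. The call was lost in the last case, without wild-type replicate 2, with DESeq2 (adjusted p = 0.0531) and with the muscle covariate (3.72, adjusted p = 0.0604, edgeR). Itga1, an integrin chain that binds type IV collagen and was chosen after its values were seen, was at 23.9, 23.1 and 32.6 CPM in wild-type mice and at 9.67, 13.6 and 13.2 CPM in Letmd1 KO mice (log2 fold change -1.12, adjusted p = 0.00157, edgeR). Itgb1, the most abundant receptor, was at 202 CPM in wild-type and 234 CPM in Letmd1 KO mice on average, 0.21 on the log2 scale (adjusted p = 0.116, edgeR), and it passed with library size alone (0.63) and with quantile normalization (0.49).

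All 6 tested genes of collagen breakdown rose. Ctsk, the collagen-cleaving protease cathepsin K, was at 6.25, 4.98 and 3.52 CPM in wild-type mice and at 28.2, 149 and 22.0 CPM in Letmd1 KO mice (adjusted p = 0.00275, edgeR). Letmd1 KO replicate 2 stood far above the other Ctsk values, and without it the log2 fold change was 2.33 in place of 3.73. Mmp14, a membrane-bound collagenase, was at 32.0, 26.4 and 31.0 CPM in wild-type mice and at 86.2, 132 and 73.6 CPM in Letmd1 KO mice (log2 fold change 1.70, adjusted p = 0.000211, edgeR). Fap, a stromal protease, rose by 1.84 on the log2 scale. Mmp9, a gelatinase, rose by 1.91 (adjusted p = 0.0208, edgeR). Without Letmd1 KO replicate 2 its value was 1.05 and the call was lost (adjusted p = 0.061, edgeR). The call was also lost without wild-type replicate 1 or 2, with quantile normalization and with the muscle covariate (2.525). Transcripts of both synthesis and breakdown were thus higher in the same mice.

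**Figure D4:**
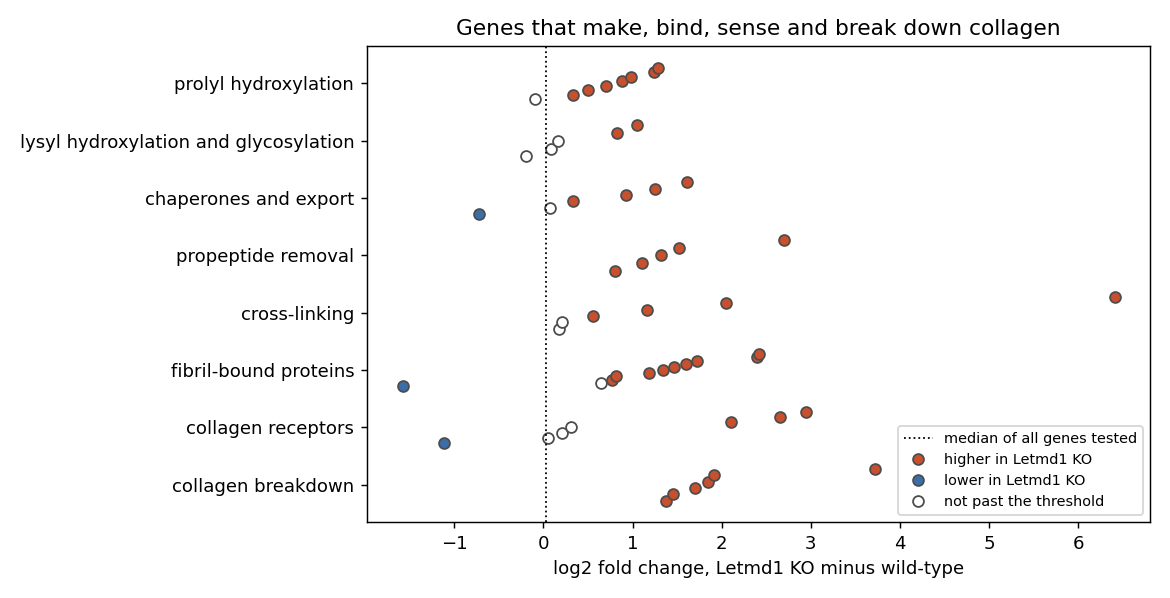
Log2 fold change of each tested gene of the collagen pathway, Letmd1 KO over wild-type BAT with 3 mice each, in rows by role, with filled points past an adjusted p of 0.05 in edgeR's fit and a dotted line at the median of all genes tested. All genes of propeptide removal and breakdown lie above 0, Prelp, Itga1 and Tmem38b are the 3 called below 0, and the point farthest right, Loxl4, has 1 count in wild-type mice, so its fitted place depends on the prior count.

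Markers of other cells that BAT can hold were higher, lower or mixed in Letmd1 KO BAT, and their calls are to be read against 23.7% of all genes tested higher and 22.3% lower. The fibroblast and progenitor list rose in 7 of 8 genes, with summed levels of 265 to 299 CPM in wild-type and 611 to 710 CPM in Letmd1 KO mice. Its log2 fold changes ran from 0.634 to 1.78, with a median of 1.39. The smooth muscle and pericyte list had 2 of 7 higher and 1 lower (256 to 284 against 304 to 312 CPM), and the endothelial list had 0 of 8 higher and 4 lower (575 to 691 against 375 to 480 CPM). Macrophage markers rose in 8 of 8 genes (163 to 229 against 1296 to 2193 CPM). The brown adipocyte list, which also holds general adipocyte genes such as Fabp4, fell in 6 of 7 (40120 to 45765 against 11858 to 16269 CPM). Fabp4 made up most of that sum, at 28020 CPM in wild-type and 10462 CPM in Letmd1 KO mice on average. Ucp1 went from 6328 to 382 CPM, and Ppargc1a did not pass the test (adjusted p = 0.0906, edgeR). Schwann cell markers rose in 5 of 6 tested genes (224 to 271 against 295 to 459 CPM). The largest part of that sum was S100b, which did not pass the test (194 against 245 CPM on average, adjusted p = 0.228, edgeR). Prx, among the 5 called, had 5, 9 and 0 counts in wild-type mice and 23, 11 and 46 in Letmd1 KO mice. Prx passed the filter only through its counts in Letmd1 KO mice, so its call adds no support. The skeletal muscle sums overlapped, at 85.5 to 519 CPM in wild-type and 369 to 1347 CPM in Letmd1 KO mice, with 1 of 12 genes called. The overlap came from wild-type replicate 2, as most of these genes were near 0 in the other wild-type mice. Ckm had 0, 227 and 0 counts in wild-type mice and 221, 136 and 1196 in Letmd1 KO mice. Myl1 differed, at 77.0, 130 and 91.3 CPM against 63.3, 70.9 and 154 CPM. The called muscle gene, Myh1, had 0, 31 and 1 counts in wild-type mice and 33, 37 and 425 in Letmd1 KO mice. Myh1 too passed the filter only through its counts in Letmd1 KO mice, and its call adds no support. Of the cartilage and tendon list, Chad and Matn3 were at 0 in every mouse, Acan and Comp had at most 7 counts in a mouse, and Sox9 rose by 3.96 on the log2 scale. The tendon gene Tnmd had 0, 0 and 0 counts in wild-type mice and 6, 1 and 5 in Letmd1 KO mice, too few for the test. Scx had 10, 1 and 0 against 16, 15 and 15 counts and did not pass it (adjusted p = 0.117, edgeR). The part of these cell types in the collagen levels was not tested.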

How the data were processed

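BAT RNA of 3 wild-type and 3 Letmd1 KO mice was sequenced as QuantSeq 3′ libraries, single-end, 75 bases. Per the labels and the paper, the authors aligned reads with Bowtie2 to mm10, named in the submitters' processing notes, counted unique and multiple alignments on genes with bedtools (versions not given in the sources used here), and deposited whole-number counts per gene and mouse. The annotation and the use of strand are not given in the sources used here. The paper's quantile normalization had not been applied to the deposited counts and was an alternative. Counts were tested in R 4.3.3 with edgeR 4.0.16 (TMM, default filter with a minimum count of 10 and total of 15, default prior count of its fit, threshold 0.05). A prior count of 2 was used only for log CPM, in the quantile normalization, the muscle covariate and the correlations between mice. Alternatives used limma 3.58.1, DESeq2 1.42.0, other filters, library size alone, a replicate block, a muscle covariate, stricter thresholds and leaving out each mouse. Steps were tested on simulated data. Intervals are 95%. Within a genotype, mice differed by more than counting noise (chi-square per degree of freedom 11.5 to 34).

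The members and the lists were chosen with earlier results of these data known. Values per mouse are given for all tested chains of types I, III, IV, V, VI, XV and XVIII and for the other called collagens with the largest and smallest changes (up to 6 each). Each pathway list gives up to 3 called genes with the largest absolute change and its most abundant member. P4ha1, Lox and Loxl3 were added as members that did not pass the test. Positions and UTRs came from GENCODE vM21 on GRCm38, the assembly that mm10 names, and miRNAs from RefSeq on GRCm38.p6. No protein sequence was used here.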

Additional observations from a re-analysis of the deposited data

Results flagged for a closer look

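Collagens too scarce for the test were searched for genes in which every Letmd1 KO mouse lay above every wild-type mouse. The Letmd1 KO mean also had to be above the mean floor of all libraries. Only Col6a5 and Col11a1 met this rule. Of all genes tested, 30.1% had every Letmd1 KO mouse above every wild-type mouse. The values below come from the counts that chose these genes and are no separate support. Col6a5, an alternative chain of type VI collagen, reached a mean of 1.70 CPM in Letmd1 KO mice against 0.158 CPM in wild-type mice. Its 46 counts in Letmd1 KO mice against 4 in wild-type mice gave a ratio of summed levels of 9.01 (95% counting interval 3.29 to 34.5, counting error only). Without the filter on low counts its log2 fold change was 3.31 (adjusted p = 0.0121, edgeR with Benjamini-Hochberg adjustment). Col11a1, a fibrillar chain, reached a mean of 0.779 CPM in Letmd1 KO mice against 0.185 CPM in wild-type mice, and without the filter its log2 fold change was 1.95 (adjusted p = 0.126, edgeR). Groups of 3 mice were not searched for single outlying mice.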

How the results depend on the processing

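The 15 collagens that rose were 20 with library size alone, 17 with quantile normalization and limma, 15 with DESeq2, 16 without a filter, 16 at a mean of 50 counts, 14 with the muscle covariate, 14 at an adjusted p under 0.01, 13 with a 2-fold minimum and 14 to 17 with each mouse left out. In each, 0 were lower. The 40 pathway genes that rose were 27 with the muscle covariate, 28 with either stricter threshold, 46 with library size alone and 31 to 38 with a mouse left out. The fibrillar median moved from 1.49 to 1.90 with library size alone (median of all genes 0.453), to 1.86 with quantile normalization and to between 1.24 and 1.66 with a mouse left out. The type IV median moved from 0.28 to 0.70 and 0.505 under the same scalings, and to between 0.237 and 0.344 with a mouse left out. With the muscle covariate the fibrillar and type IV medians were 1.55 and 0.371. The median of the other collagens moved from 1.13 to 1.56 with library size alone, 1.31 without a filter, 1.43 at a mean of 50 counts, 1.51 with the muscle covariate and 1.09 to 1.48 with a mouse left out. Values that reversed were Col20a1 (0.156 with library size alone, -0.461 to 0.003 with a mouse left out), Col13a1 (0.18 with library size alone), Col7a1 (0.211 with the muscle covariate, -1.10 to 0.349 with a mouse left out), Col23a1 (0.239 with the muscle covariate) and Serpinh1 (-0.011 to 0.169 with a mouse left out). The cause was not tested.

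Same-numbered mice deviated with correlations of 0.069, -0.111 and -0.087, and differently numbered mice with -0.093 to 0.191. With 3 mice per genotype, these values cannot decide whether the numbers pair the mice. With the replicate block, 15 collagens rose. Collagens under the floor of 0.176 to 0.397 CPM could not be compared at this depth.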
